A study of Mus musculus with 32 samples.

Results

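This section describes brown adipose tissue of mice labelled as a Smim30 knockout (Mut) against brown adipose tissue of wild-type mice (WT). The members are the 8 brown fat libraries of a series of 32, chosen by tissue and genotype label: 4 WT and 4 Mut libraries, each from 1 individual mouse. The other 24 libraries are from heart, liver and skeletal muscle of the same genotypes and are used only where a difference between tissues is given. All mice were male and of the strain C57BL/6J, and the tissue was frozen in liquid nitrogen. Their age, the housing temperature, the part of Smim30 that the allele removes, and whether the WT mice were littermates are absent from the labels. Expression is in TPM, a share of each library's RNA corrected for transcript length, summed over the transcripts of a gene. Of 51510 genes in the annotation, the 12150 whose mean in brown fat reached 1 TPM were tested for Mut minus WT with limma, a linear model across all genes, on log2(TPM + 1). Fold changes below are on that log2 scale, which understates the change of genes at low TPM. P-values were adjusted over all genes tested by the Benjamini-Hochberg method, and an adjusted p under 0.05 is called a change. Where 4 values are given for a group, they are libraries 1 to 4 in that order.

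Brown fat burns fuel to make heat. Its adipocytes hold many mitochondria whose inner membrane carries uncoupling protein 1, which lets protons return without making ATP, and they feed on fatty acids, glucose and branched-chain amino acids. Noradrenaline from sympathetic nerves turns this on through adrenergic receptors and cyclic AMP. The tissue also holds preadipocytes, fibroblasts, macrophages, endothelial cells, blood and nerve endings, so RNA of the whole depot mixes these cells, and fewer cells of a type cannot be told apart from less RNA per cell.

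Smim30 encodes a small integral membrane protein. The annotation used here (GENCODE M21, mouse build GRCm38) names it 2610001J05Rik, and it lies on the minus strand of chromosome 6 from 13867735 to 13871518. Its coding sequence is shown because this is the open reading frame that the knockout targets by name. It falls in 1 of the 3 exons of the main transcript, at chr6:13870532-13870711, and runs for 180 bases, which gives 59 codons before the stop. The start and stop codons are in capitals.
Smim30 coding sequence: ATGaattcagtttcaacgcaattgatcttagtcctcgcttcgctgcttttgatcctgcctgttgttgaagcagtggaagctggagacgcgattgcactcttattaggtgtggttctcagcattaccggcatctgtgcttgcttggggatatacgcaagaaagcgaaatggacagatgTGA

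Smim30 RNA was present in all 8 brown fat libraries. It read 23.5, 26.8, 32.0 and 32.3 TPM in WT and 28.6, 27.3, 29.3 and 33.0 TPM in Mut. The groups overlapped, and the log2 fold change was 0.05 (SE 0.11). An exact permutation test over the 70 assignments of the 8 libraries gave p = 0.686, two-sided, where the smallest p possible is 0.0286. The transcript that holds the printed reading frame carried 86.0% to 91.4% of the gene's TPM in each library. Some alleles abolish a protein without lowering its RNA, and these values do not check the genotype labels. In heart and in skeletal muscle, where Smim30 read lower in all 4 Mut libraries than in all 4 WT libraries, the effect differed in sign from that in brown fat, but the test of brown fat against the mean of the other 3 tissues did not pass (difference 0.41, limma adjusted p = 0.112). It passed in 1 of 5 alternative settings of that model.

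Within 1000 kb of Smim30, 5 other genes reached the minimum level. Tmem106b, a lysosomal membrane protein, read 36.3, 36.1, 31.9 and 34.4 TPM in WT and 30.6, 29.8, 29.8 and 28.3 TPM in Mut. Every Mut library lay below every WT library (log2 fold change -0.22, limma adjusted p = 0.165). The other 4, Tmem168 (0.05), Bmt2 (0.05), Ppp1r3a (0.14) and a noncoding RNA with a provisional name that starts next to Smim30 (-0.15), had overlapping groups.

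The tissue label was checked against its markers. Ucp1, the uncoupling protein itself, read 2444, 2837, 3417 and 3565 TPM in WT and 2959, 3026, 3170.2 and 2732 TPM in Mut. The 10 brown adipocyte markers summed to 9515 to 11100.0 TPM in WT and 9607 to 11890.0 TPM in Mut, and none of them had an unadjusted p under 0.05. Dio2, the deiodinase that makes active thyroid hormone in brown fat, varied far more, with 15.5, 5.31, 34.4 and 54.6 TPM in WT and 30.8, 20.0, 15.9 and 17.0 TPM in Mut. Mitochondrially encoded genes took 31.82% to 38.53% of the TPM of a library.

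WT 1 and WT 2 stand apart from the other 6 libraries, and this touches most results below. The gene Ide, which in heart, liver and muscle separated the genotype labels without overlap, did not separate them in brown fat, where WT 1, WT 2 and Mut 1 read low (its values are given near the end). Whether these libraries carry the genotype of their label cannot be told from the files, and every Mut minus WT value below takes the labels as given. On the first principal component of log2(TPM + 1), which held 50.9% of the variance, they scored -34.5 and -29, while WT 4 scored -0.9, WT 3 scored 11.6 and the Mut libraries scored 6.1 to 19.7. Across genes, WT 1 and WT 2 correlated with each other at r = 0.992 and with WT 3 and WT 4 at 0.977 to 0.980, whereas WT 3 correlated with the 4 Mut libraries at 0.988 to 0.989. These correlations are across genes that share libraries and are given as a description. The second component (15.6%) put WT 4 (22.6) and WT 3 (10.4) on one side and had WT 1 (1.5) and the other libraries at or below that value.

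**Figure D1:**
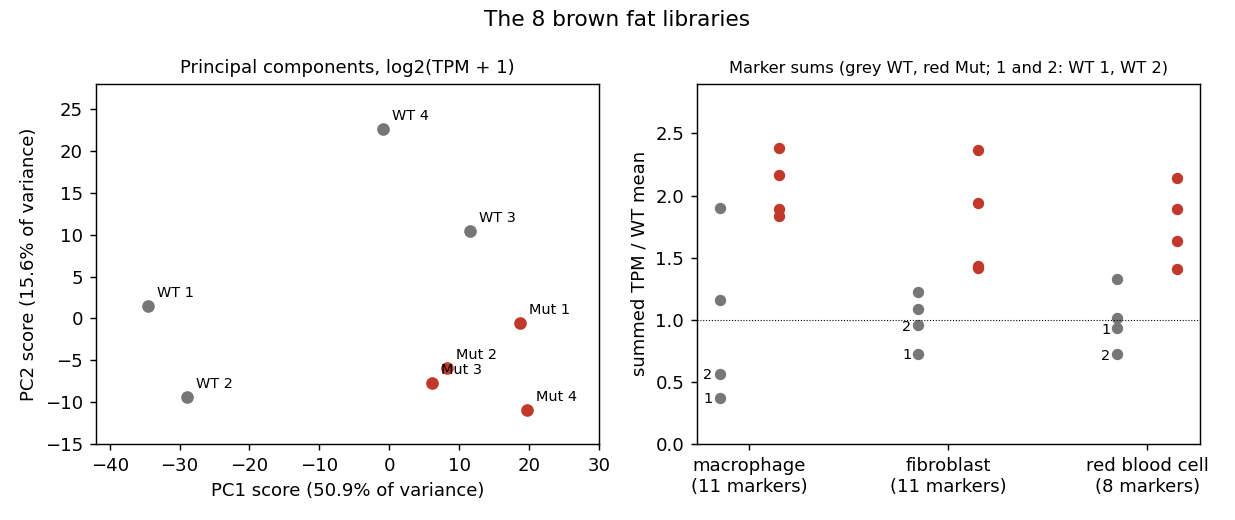
Left, scores of the 8 brown fat libraries on the first and second principal components of log2(TPM + 1), where each point is a library. Right, summed TPM of 3 marker lists divided by the WT mean of the list, with WT in grey and Mut in red; WT 1 and WT 2 hold the lowest macrophage sums, and WT 3 lies within the Mut range for macrophage markers but not for the other lists.

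Most of the 12 genes with the highest loading on the first component are known from macrophages. Lgals3, which encodes galectin-3 of activated macrophages, read 5.04, 14.2, 109 and 31.6 TPM in WT and 147, 61.7, 59.1 and 128 TPM in Mut. Trem2, a lipid receptor of macrophages, read 1.09, 1.67, 13.6 and 3.86 TPM in WT and 15.2, 7.48, 9.82 and 19.5 TPM in Mut. Gpnmb, Mmp12, Ccl9, Ccl6, Cd68 and Ctss belong to the same 12. For each of these 8 genes WT 1 and WT 2 had the lowest values of the 8 libraries, and WT 3 lay inside the Mut range. Gdf15, a stress hormone, is also among them and read 0.813, 0.787, 19.9 and 13.6 TPM in WT and 17.4, 10.5, 26.6 and 20.7 TPM in Mut, so that WT 1 and WT 2 differ from the other 6 by more than the genotypes do. At the other end, Cfd, the adipocyte protease adipsin, read 561, 580.3, 143 and 202 TPM in WT and 190.1, 131, 152 and 241 TPM in Mut, with WT 1 and WT 2 alone at the high level. Pim1, a kinase of cytokine signalling, had the same order (31.6, 55.1, 16.6 and 16.2 TPM in WT; 16.3, 16.9, 22.7 and 19.3 TPM in Mut). These genes were chosen by the component, so no test is given for it.

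Summed over 11 markers, macrophage RNA was 84.2, 128, 428 and 262 TPM in WT and 487.5, 415, 426 and 537 TPM in Mut. Fibroblast and preadipocyte markers (11) summed to 278 to 468 TPM in WT and 542 to 902 TPM in Mut. Red blood cell markers (8) summed to 2107 to 3879 TPM in WT and 4097 to 6240.0 TPM in Mut. B cell markers (11) summed to 18.7 to 32.0 TPM in WT and 42.3 to 59.0 TPM in Mut, and T cell markers (11), none of which reached the minimum level, to 1.16 to 4.95 TPM in WT and 2.72 to 4.99 TPM in Mut. For all of these but macrophage and T cell markers, the groups did not overlap, and in the B cell list this rests on Ighm: the other 10 markers summed to 11.6, 8.72, 3.00 and 3.16 TPM in WT and 6.04, 3.26, 20.2 and 4.24 TPM in Mut, which overlap. Skeletal muscle markers (18) summed to 1908 to 2091 TPM in WT and to 2849, 4120.0, 2884 and 1740.0 TPM in Mut, so that 3 Mut libraries were above and 1 below the WT range. No marker of the macrophage, fibroblast, red blood cell, muscle, B or T cell list was at 0 in all 8 libraries. The part of these cells in the gene differences below was not tested.

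No gene passed at an adjusted p under 0.05 in limma (0% of 12150; smallest adjusted p 0.0609). At an unadjusted p under 0.05, 2084 genes (17.2%) were higher in Mut and 285 (2.35%) were lower. For 942 genes (7.75%) all 4 Mut libraries lay above all 4 WT libraries, and for 201 (1.65%) all lay below. This tilt depends on the scaling: 8834 genes (72.7%) had the higher mean in Mut with a median log2 fold change of 0.09, while with median-ratio scaling, which sets the typical gene equal across libraries, the median was -0.01 and the unadjusted counts were 1365 higher and 1078 lower. Without WT 1 and WT 2 the counts were 1051 higher and 879 lower, and 1 gene passed. The count of passing genes also turned on WT 3: leaving it out gave 786 higher and 41 lower genes at an adjusted p under 0.05. Array weights, which give less weight to the more variable libraries, gave 592 and 56, and 1 model over all 32 libraries, in which the other tissues help set the spread, gave 787 and 61. Single genes are therefore given below as values, with the adjusted p for some, and none is called changed.

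Entpd4 had the smallest p. It encodes a nucleotide-hydrolysing enzyme of the Golgi and lysosome. It read 101, 130.2, 95.0 and 77.0 TPM in WT and 36.8, 36.9, 45.5 and 34.4 TPM in Mut, a log2 fold change of -1.35 (SE 0.15, limma adjusted p = 0.0609). The lowest WT library was well above the highest Mut library. It passed in 5 of 18 alternative settings and was -1.14 without WT 1 and WT 2. Most of its transcripts are identical in sequence to those of a second copy, Entpd4b, that has no row in the table, so the value covers both copies.

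Gpd2 came next. It is the mitochondrial glycerol-3-phosphate dehydrogenase, which passes electrons from cytosolic glycerol 3-phosphate to the respiratory chain and is abundant in brown fat. It read 151, 158, 160.1 and 158 TPM in WT and 107, 95.4, 117 and 94.6 TPM in Mut (log2 fold change -0.60, SE 0.08, limma adjusted p = 0.106). The 4 WT libraries were within a narrow band that included WT 1 and WT 2, and the value was -0.62 without them and -0.71 with median-ratio scaling. Gpd1, the cytosolic partner in the same shuttle, read 1687, 2069, 2318 and 2256 TPM in WT and 1699.5, 1714, 1914 and 1668 TPM in Mut, with overlapping groups (-0.24).

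Over all genes tested, 7.75% lay above WT in all Mut libraries and 1.65% lay below. Of the 20 genes with the smallest p, 5 were lower and 15 higher in Mut, and in each of them the groups did not overlap. That separation follows in large part from the choice by p in the same libraries. Besides Entpd4, Gpd2 and a gene with a provisional name, the lower ones were Aldh6a1, an enzyme of valine breakdown described below, and Parm1, a mucin-like membrane protein (means and SD of n = 4: 25.5 ± 2.44 TPM in WT and 16.7 ± 1.33 TPM in Mut). Of the higher ones, 1 is a pseudogene. Ccl11, the eosinophil chemokine eotaxin, read 17.4, 18.1, 17.4 and 20.8 TPM in WT and 29.9, 27.9, 25.1 and 29.1 TPM in Mut (log2 fold change 0.58, limma adjusted p = 0.106). Its 4 WT libraries, WT 1 and WT 2 included, were alike. Mmp2, a matrix metalloprotease of fibroblasts, read 5.39, 6.53, 7.44 and 7.18 TPM in WT and 12.4, 10.1, 11.5 and 10.0 TPM in Mut (0.66). Hspg2, which encodes the basement membrane proteoglycan perlecan, read 29.3, 32.5, 35.6 and 34.4 TPM in WT and 44.5, 50.2, 45.0 and 55.7 TPM in Mut (0.55). Igfbp7, a secreted protein of vessels and stroma, read 61.6, 68.6, 84.3 and 74.8 TPM in WT and 103, 106, 106 and 117 TPM in Mut (0.58).

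The other 10 higher genes did not exceed 11.7 TPM in any library. Nup210, a nuclear pore protein, lay at 0.921 to 1.31 TPM in WT and 2.05 to 3.11 TPM in Mut (0.79). Rtn4rl1, a receptor related to the Nogo receptor, lay at 2.41 to 2.50 TPM in WT and 3.68 to 4.13 TPM in Mut (0.50). Spns2, the exporter of sphingosine 1-phosphate, lay at 4.13 to 4.69 TPM in WT and 6.41 to 7.76 TPM in Mut (0.58). Hoxc4, a homeobox transcription factor, lay at 5.52 to 7.64 TPM in WT and 9.29 to 11.7 TPM in Mut (0.62). These 4 stood clear of the WT range in every Mut library. Cpne2, a calcium-dependent phospholipid-binding protein, had a log2 fold change of 0.77. Galnt15, which starts O-glycans, had 0.75. Hmgn3, a nucleosome-binding protein, had 0.83, Bex3 0.63, Fam198b 0.59 and the scramblase Plscr2 0.57. The 18 genes of the 20 with full names kept their sign in every alternative setting that tested them (17 or 18). As they were chosen by p in the same libraries, this follows in part from the choice. With WT 1 and WT 2 left out their values ranged from -1.14 for Entpd4 to 0.78 for Nup210.

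**Figure D2:**
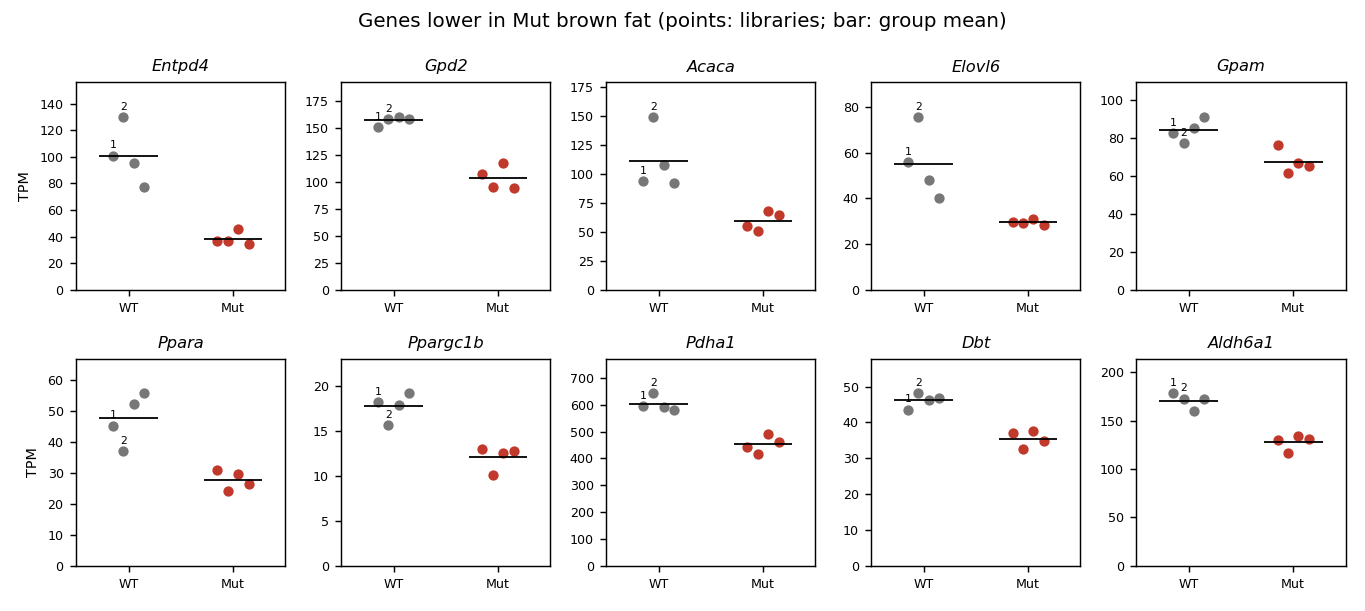
TPM of 10 genes that were lower in Mut brown fat, with WT in grey and Mut in red; each point is a library, the bar is the group mean, and 1 and 2 mark WT 1 and WT 2. In each of the panels every Mut point lies below every WT point, with Gpd2 at 151 to 160 TPM in WT and 94.6 to 117 TPM in Mut.

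Genes that feed fuel into the mitochondria were mostly lower in Mut. Of 24 genes of the tricarboxylic acid cycle and of pyruvate entry, 20 had the lower mean (27.3% of all genes). Of the 24, 10 were lower with an unadjusted p under 0.05 and 9 lay below WT in all libraries, against 2.35% and 1.65% of all genes. The list also holds Pdk1 (-0.40, among these 10) and Pdk2 (-0.13), kinases that inhibit pyruvate dehydrogenase. The list median was -0.15 where the median of all genes was 0.09, and it was -0.26 with median-ratio scaling and -0.17 without WT 1 and WT 2. Pdha1, the catalytic subunit of pyruvate dehydrogenase, read 594, 643, 591 and 579 TPM in WT and 443, 418, 492 and 460.4 TPM in Mut (log2 fold change -0.41, limma adjusted p = 0.106). Ogdh, the 2-oxoglutarate dehydrogenase, lay at 593 to 678 TPM in WT and 503 to 573 TPM in Mut (-0.24), and Sdha, the succinate dehydrogenase subunit shared with the respiratory chain, lay at 918 to 962 TPM in WT and 756 to 876 TPM in Mut (-0.21). None of these groups overlapped.

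Branched-chain amino acid breakdown had the lowest median of the lists with at least 5 members tested, -0.16. Of its 19 members, 15 were lower in mean (27.3% of all genes), 8 with an unadjusted p under 0.05 (2.35% of all genes). The same number lay below WT in all libraries (1.65% of all genes). None was higher at that p. Aldh6a1, methylmalonate semialdehyde dehydrogenase, read 178, 173, 159.9 and 172 TPM in WT and 129.8, 117, 134 and 131 TPM in Mut (log2 fold change -0.42, limma adjusted p = 0.106). Dbt, the core subunit of the branched-chain keto acid dehydrogenase, read 43.5, 48.2, 46.2 and 46.7 TPM in WT and 36.9, 32.6, 37.5 and 34.8 TPM in Mut (-0.37). Acadsb, the branched-chain acyl-CoA dehydrogenase of isoleucine breakdown, lay at 81.7 to 89.8 TPM in WT and 62.3 to 72.1 TPM in Mut (-0.31). The gene Mut, which encodes methylmalonyl-CoA mutase and shares its symbol with the group label by chance, lay at 61.7 to 69.9 TPM in WT and 49.8 to 56.3 TPM in Mut (-0.29). In all 4 the WT libraries formed a band above the Mut libraries. The list median was -0.27 with median-ratio scaling and -0.15 without WT 1 and WT 2.

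Fatty acid oxidation followed the same direction with smaller values. Of 25 members, 21 were lower in mean and 4 higher (27.3% and 72.7% of all genes). There were 5 lower with an unadjusted p under 0.05 and 1 higher (2.35% and 17.2% of all genes). In all libraries 5 lay below WT (1.65% of all genes). The median was -0.11 (-0.13 without WT 1 and WT 2). Hadha and Hadhb, the subunits of the trifunctional protein that runs the last steps of long-chain oxidation, read 719, 799, 856 and 757 TPM and 2619, 2780.3, 2772 and 2624 TPM in WT. In Mut they read 657, 599.8, 651 and 643 TPM and 2174, 2031, 2252 and 2375 TPM, below WT in every library (log2 fold changes -0.29 and -0.29). Acot11, a thioesterase induced by cold in brown fat, lay at 49.2 to 69.5 TPM in WT and 39.8 to 47.5 TPM in Mut (-0.49). Acot1, a cytosolic thioesterase, lay at 2.70 to 7.94 TPM in WT and 1.44 to 2.53 TPM in Mut (-0.92), with the highest values in WT 1 and WT 2, and -0.43 without them.

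Ppara and Ppargc1b, regulators of this programme, also read lower, while the groups overlapped for Ucp1. Of 29 thermogenic genes tested, 19 were lower in mean, 7 with an unadjusted p under 0.05, and 1 was higher at that p, against 2.35% lower and 17.2% higher among all genes; the median was -0.09. Ppara, the fatty acid receptor that drives oxidation genes, read 45.2, 37.1, 52.2 and 55.7 TPM in WT and 31.0, 24.0, 29.7 and 26.5 TPM in Mut (log2 fold change -0.74, SE 0.13, limma adjusted p = 0.106). Ppargc1b, the coactivator PGC-1 beta, read 18.2, 15.7, 17.9 and 19.2 TPM in WT and 13.0, 10.1, 12.5 and 12.8 TPM in Mut (-0.52). Both had every Mut library below every WT library, and both differed at least as much without WT 1 and WT 2 (-0.94 and -0.58). Ppargc1a, the coactivator PGC-1 alpha induced by cold, read 7.89, 6.89, 11.6 and 22.0 TPM in WT and 7.28, 5.77, 6.98 and 5.88 TPM in Mut, with overlapping groups and the highest value in WT 4 (-0.68). Gk, glycerol kinase, which lets brown fat reuse glycerol, read 74.0, 72.1, 102 and 132 TPM in WT and 72.6, 60.6, 58.5 and 58.9 TPM in Mut (-0.55). WT 2 lay inside the Mut range, and WT 1 lay just above the highest Mut library. Epsti1, another of the 4 members of the list with the smallest p, was higher (0.65). Cidea, a lipid droplet protein typical of brown fat, lay at 1529 to 1738 TPM in WT and 1283 to 1704 TPM in Mut (-0.09), and Ucp1 had -0.03; in both the groups overlapped.

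Lipid synthesis was split. Of 24 genes of fatty acid and triglyceride synthesis, 14 were lower in mean and 10 higher (27.3% and 72.7% of all genes). At an unadjusted p under 0.05 there were 4 and 2 (2.35% and 17.2% of all genes), and the median was -0.05. Acaca, acetyl-CoA carboxylase 1, the committed step of fatty acid synthesis, read 93.9, 149, 108 and 92.4 TPM in WT and 55.4, 50.4, 67.7 and 64.2 TPM in Mut (log2 fold change -0.87, SE 0.16, limma adjusted p = 0.106). Elovl6, the elongase that turns palmitic acid into stearic acid, read 55.9, 75.7, 47.9 and 40.0 TPM in WT and 29.5, 29.0, 31.0 and 28.4 TPM in Mut (-0.84). Gpam, the mitochondrial acyltransferase that starts glycerolipid synthesis, lay at 77.0 to 91.0 TPM in WT and 61.2 to 76.3 TPM in Mut (-0.31). In these 3 genes every Mut library was below every WT library, including WT 3 and WT 4. Fasn, fatty acid synthase, read 1547, 2940.3, 1494 and 877 TPM in WT and 696, 798, 1043 and 1312 TPM in Mut, with overlap and the highest value in WT 2 (-0.74; -0.29 without WT 1 and WT 2). Scd2, a fatty acid desaturase, was higher (means and SD of n = 4: 9.89 ± 4.30 TPM in WT and 17.7 ± 2.27 TPM in Mut; 0.87), with WT 3 inside the Mut range.

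Glucose uptake, glycolysis and glycogen genes had 6 of 29 members lower at an unadjusted p under 0.05 and none higher (2.35% and 17.2% of all genes). Slc2a4, the insulin-responsive glucose transporter GLUT4, read 119, 132, 123 and 114 TPM in WT and 93.9, 105, 104 and 94.1 TPM in Mut (-0.29, limma adjusted p = 0.125). Gys1, glycogen synthase, lay at 53.7 to 57.1 TPM in WT and 46.6 to 50.9 TPM in Mut (-0.20), and Pygl, a glycogen phosphorylase, lay at 102 to 189 TPM in WT and 77.1 to 103 TPM in Mut (-0.58). Pfkfb3, which makes a sugar bisphosphate that activates glycolysis, lay at 88.2 to 116 TPM in WT and 69.9 to 90.6 TPM in Mut (-0.37). Of these, Slc2a4 and Gys1 had no overlap. Among signalling genes, the insulin receptor Insr lay at 12.3 to 13.9 TPM in WT and 10.6 to 11.7 TPM in Mut (-0.23), and the type II regulatory subunit of protein kinase A, Prkar2b, lay at 399 to 422 TPM in WT and 323 to 381 TPM in Mut (-0.20). The insulin and growth factor list that holds Insr went both ways. Mtor (-0.23) was also lower at an unadjusted p under 0.05 (2.35% of all genes). Higher at that p (17.2% of all genes) were Igfbp7 (0.58), Igfbp3 (0.46), Igf1 (0.69), Igfbp4 (0.52), Igf1r (0.24) and Igfbp6 (0.60). Adcy3, an adenylyl cyclase of the adrenergic pathway, lay at 30.7 to 45.3 TPM in WT and 22.1 to 32.1 TPM in Mut (-0.56). Of 23 adrenergic signalling genes, 6 were lower and 1 higher at an unadjusted p under 0.05 (2.35% and 17.2% of all genes).

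Respiratory chain subunits showed little of this. Of 37 nuclear complex I genes, 1 had an unadjusted p under 0.05, Ndufs1, which lay at 302 to 335 TPM in WT and 262 to 294 TPM in Mut (-0.23), and the list median was -0.02. Of 38 nuclear genes of complexes II to V, 1 was lower and 3 higher at that p (2.35% and 17.2% of all genes). Their median was -0.03. Their direction depends on the scaling and the libraries: with median-ratio scaling 36 of 37 and 32 of 38 had the lower mean, and without WT 1 and WT 2 10 of 37 and 14 of 38 did. In the mitochondrial dynamics list, Opa1, the inner membrane fusion GTPase, read 44.9, 43.3, 50.3 and 51.8 TPM in WT and 40.0, 34.7, 38.3 and 35.8 TPM in Mut (-0.35), and Fis1, a fission receptor, read 57.4, 63.9, 72.0 and 64.5 TPM in WT and 74.2, 76.0, 78.6 and 82.0 TPM in Mut (0.27). Both pairs of groups stood apart, in opposite directions. In fatty acid uptake, the lipoprotein receptor Vldlr lay at 28.9 to 35.8 TPM in WT and 24.8 to 27.2 TPM in Mut (-0.31). It was the only member of that list lower at an unadjusted p under 0.05 (2.35% of all genes). Higher at that p (17.2% of all genes) were Apoe (0.30), Lrp1 (0.45), Gpihbp1 (0.25), Fabp4 (0.23), Fabp3 (0.24) and Fabp5 (0.45).

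Creatine and calcium cycling can also spend energy as heat. In that list, 5 of 14 members were higher and 1 lower at an unadjusted p under 0.05 (17.2% and 2.35% of all genes), and the median was 0.16, or 0.06 with median-ratio scaling. Gamt, which makes creatine, read 5.66, 7.08, 8.43 and 6.94 TPM in WT and 11.0, 9.91, 8.65 and 12.7 TPM in Mut (0.52). Atp2a3, a calcium pump of the endoplasmic reticulum known mainly from blood and endothelial cells, read 3.20, 4.20, 4.31 and 3.69 TPM in WT and 5.75, 7.07, 5.52 and 8.10 TPM in Mut (0.64). Ckb, the brain-type creatine kinase, lay at 22.0 to 25.4 TPM in WT and 26.6 to 31.5 TPM in Mut (0.28). In these 3 genes all Mut libraries were above all WT libraries. Itpr1, an inositol trisphosphate receptor that releases calcium, was on the other side and lay at 17.9 to 27.4 TPM in WT and 16.8 to 17.8 TPM in Mut (-0.31). Ryr1, the calcium release channel of skeletal muscle and 1 of the 5, read 3.95, 4.10, 4.46 and 3.81 TPM in WT and 5.94, 9.20, 5.90 and 3.81 TPM in Mut. It was highest in Mut 2 and lowest in Mut 4 of the Mut libraries, as was the skeletal muscle marker sum, whose part in this count was not tested.

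**Figure D3:**
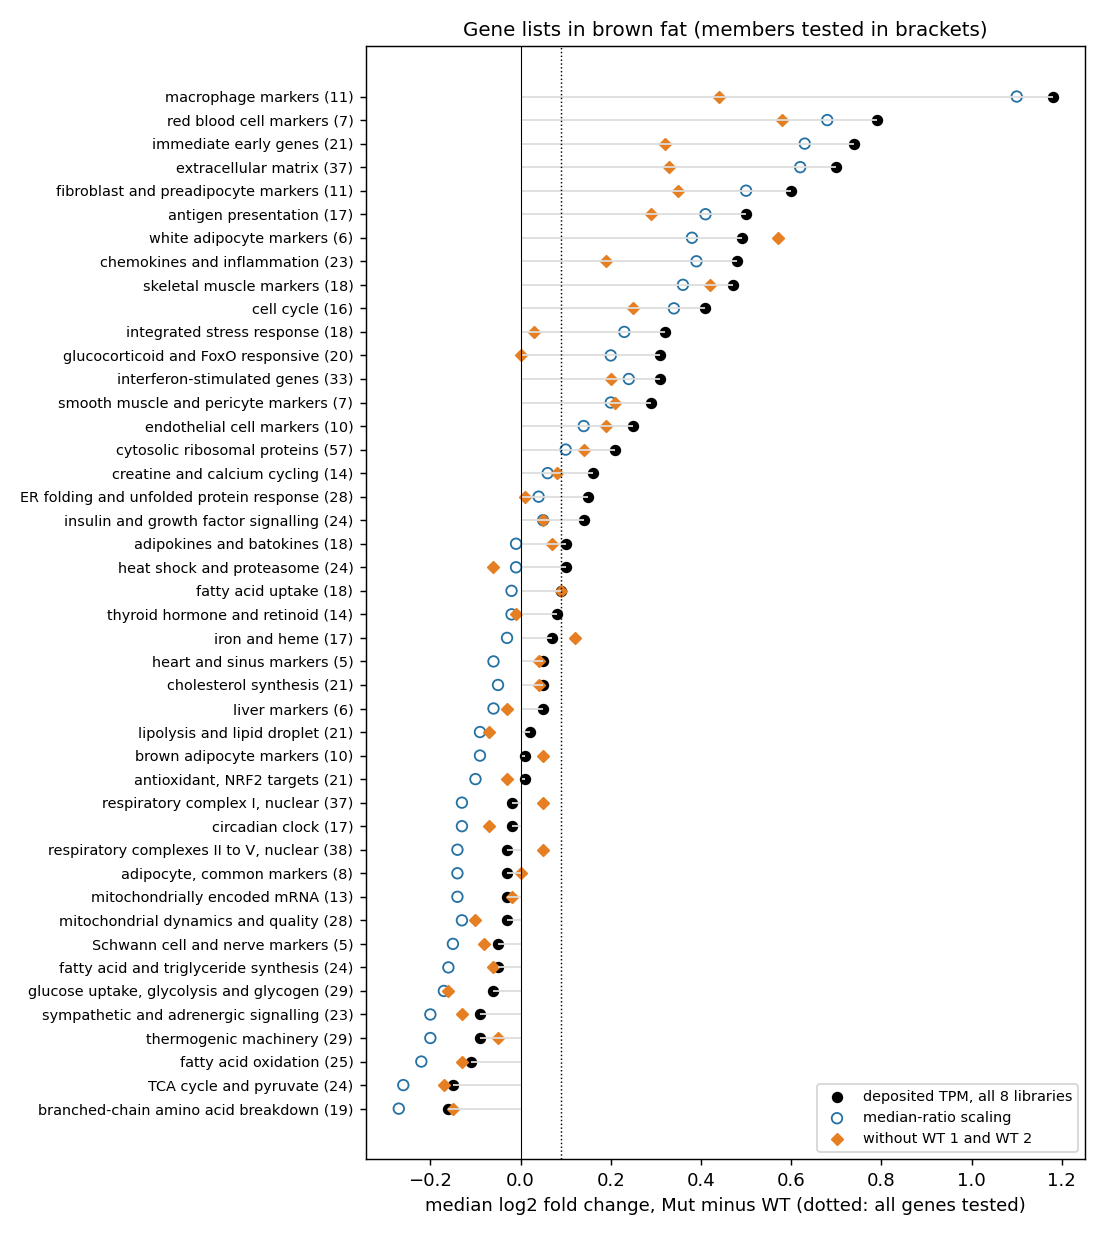
Median log2 fold change (Mut minus WT) of each gene list with at least 5 members tested, shown for the deposited TPM (black), with median-ratio scaling (blue rings) and without WT 1 and WT 2 (orange); the dotted line is the median of all genes tested, 0.09. Macrophage markers (1.18) shrink most without these libraries, to 0.44, while branched-chain amino acid breakdown stays at -0.16 and -0.15.

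Extracellular matrix genes were higher in Mut almost throughout. Of 37 members, 36 had the higher mean, 29 with an unadjusted p under 0.05 (17.2% of all genes), and 20 lay above WT in all libraries (7.75% of all genes). The list median was 0.70, with 0.62 under median-ratio scaling and 0.33 without WT 1 and WT 2. Col1a1 and Col3a1, the fibrillar collagens of fibroblasts, read 6.24, 11.6, 23.2 and 13.9 TPM and 35.4, 54.3, 103 and 65.8 TPM in WT. In Mut they read 63.4, 25.0, 24.7 and 44.8 TPM and 256, 119, 137 and 164 TPM, the highest in Mut 1 (log2 fold changes 1.48 and 1.41). Fmod, a proteoglycan that binds collagen, read 0.636, 0.805, 1.20 and 1.05 TPM in WT and 2.59, 1.80, 2.06 and 3.09 TPM in Mut (0.81, limma adjusted p = 0.106). Postn, periostin, read 30.4, 29.8, 35.3 and 32.8 TPM in WT and 43.8, 39.8, 40.4 and 41.5 TPM in Mut (0.36), and Dcn, decorin, lay at 86.6 to 109.7 TPM in WT and 119 to 143 TPM in Mut (0.41). None of these groups overlapped. All 11 fibroblast and preadipocyte markers were higher in mean (72.7% of all genes). Of them, 9 lay above WT in all libraries (7.75% of all genes). Their median was 0.60, or 0.35 without WT 1 and WT 2.

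Macrophage markers were higher in Mut, 11 of 11 in mean and 10 with an unadjusted p under 0.05, against 72.7% and 17.2% of all genes. Their median of 1.18 was 0.44 without WT 1 and WT 2, and 3 markers had no overlap (7.75% of all genes lay above WT in all libraries). C1qa, a complement component of resident macrophages, read 11.3, 14.9, 39.8 and 28.5 TPM in WT and 50.3, 45.9, 46.0 and 61.2 TPM in Mut (1.23, limma adjusted p = 0.132; 0.57 without WT 1 and WT 2). Csf1r, the receptor that macrophages need to live, read 2.79, 3.26, 11.2 and 7.74 TPM in WT and 14.5, 11.0, 12.0 and 12.4 TPM in Mut (1.06), with WT 3 inside the Mut range. Of 23 chemokine and inflammation genes, 22 were higher in mean and 10 with an unadjusted p under 0.05 (72.7% and 17.2% of all genes; median 0.48, or 0.19 without WT 1 and WT 2). Saa3, an acute phase protein of fat, read 0.727, 0.786, 3.28 and 4.14 TPM in WT and 13.5, 3.78, 3.48 and 15.2 TPM in Mut. Lbp, the lipopolysaccharide-binding protein, read 2.62, 4.20, 6.62 and 7.12 TPM in WT and 18.6, 9.88, 6.99 and 16.4 TPM in Mut. In both, Mut 1 and Mut 4 were far above Mut 2 and Mut 3, as they were for Col1a1 and Lgals3.

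Genes of antigen presentation were higher in mean in 17 of 17 cases, 12 with an unadjusted p under 0.05 (72.7% and 17.2% of all genes; median 0.50; 0.29 without WT 1 and WT 2). B2m, the light chain of class I molecules, read 526, 536, 723 and 634 TPM in WT and 834, 812, 825 and 1094 TPM in Mut (0.56). H2-DMb1, which loads class II molecules, read 2.67, 2.04, 6.59 and 5.60 TPM in WT and 8.00, 6.86, 7.55 and 10.6 TPM in Mut (0.91). Interferon-stimulated genes were higher in mean in 29 of 33, 17 with an unadjusted p under 0.05 (same shares of all genes; median 0.31, or 0.20 without WT 1 and WT 2). Irf7, the interferon regulatory factor that amplifies the response, read 3.27, 3.61, 5.77 and 4.09 TPM in WT and 7.35, 6.14, 6.78 and 8.87 TPM in Mut (0.69), and Oasl2, an oligoadenylate synthetase-like protein, read 1.30, 2.42, 2.65 and 1.74 TPM in WT and 4.61, 3.14, 3.94 and 4.01 TPM in Mut (0.72). These 4 genes had no overlap. Ighm, the immunoglobulin M heavy chain of B cells, read 7.12, 15.3, 29.0 and 23.7 TPM in WT and 42.8, 39.0, 38.8 and 51.0 TPM in Mut (1.30), while Igha, the immunoglobulin A heavy chain, read 6.56, 4.63, 0.651 and 0.848 TPM in WT and 1.19, 0.0752, 0.625 and 0.267 TPM in Mut, with only WT 1 and WT 2 high.

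Blood, vessel and muscle markers were also higher in mean. All 7 red blood cell markers tested were higher with an unadjusted p under 0.05 (17.2% of all genes). Of them, 5 had no overlap (7.75% of all genes lay above WT in all libraries). Their median was 0.79, or 0.58 without WT 1 and WT 2. Hba-a2, an alpha globin whose copy Hba-a1 is nearly identical, read 1002, 746, 1097 and 1428 TPM in WT and 2023, 1551, 1766 and 2227 TPM in Mut (0.85). Alas2, the heme synthesis enzyme of red cell precursors, read 8.44, 6.71, 9.17 and 10.7 TPM in WT and 17.7, 12.8, 13.7 and 18.8 TPM in Mut (0.78). Pecam1, which marks endothelial cells, read 36.7, 37.6, 45.9 and 40.3 TPM in WT and 47.0, 56.5, 56.8 and 51.4 TPM in Mut (0.39), and 9 of 10 endothelial markers were higher in mean, against 72.7% of all genes (median 0.25, or 0.14 with median-ratio scaling). Of 18 skeletal muscle markers all had the higher mean and 5 an unadjusted p under 0.05 (17.2% of all genes), but the groups overlapped in each. Acta1, skeletal actin, read 260.1, 269, 289 and 292 TPM in WT and 461, 604, 425 and 253 TPM in Mut, with Mut 2 highest and Mut 4 below every WT library.

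**Figure D4:**
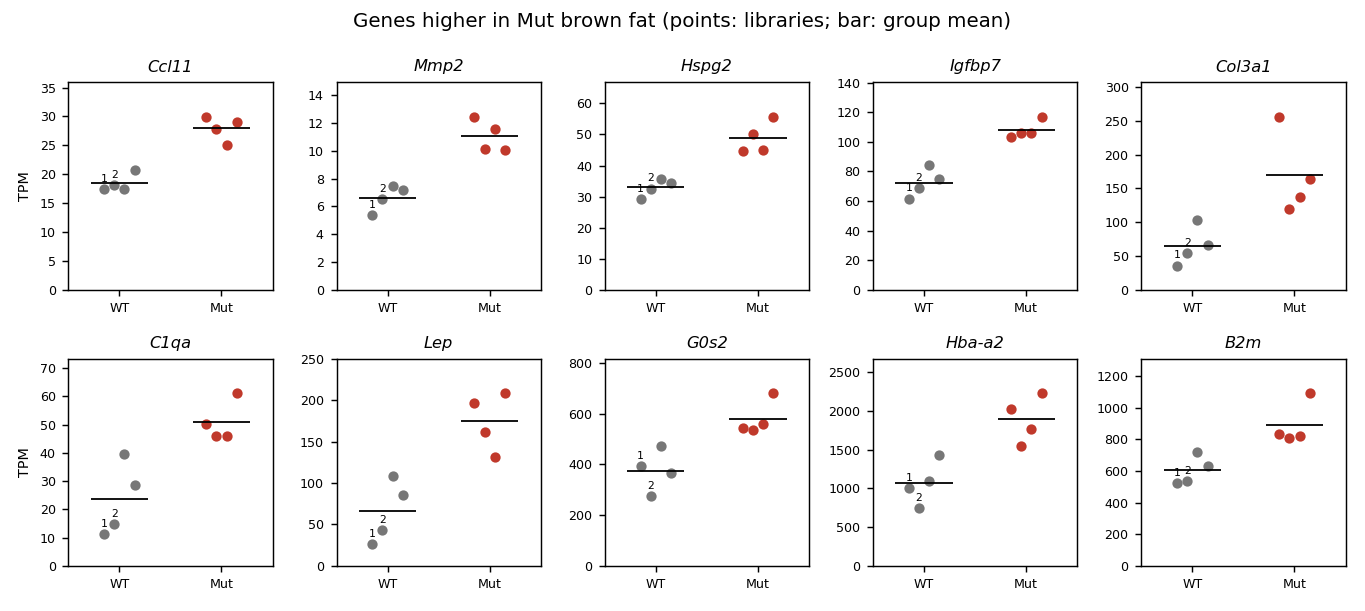
TPM of 10 genes that were higher in Mut brown fat, with WT in grey and Mut in red; each point is a library, the bar is the group mean, and 1 and 2 mark WT 1 and WT 2. Every Mut point lies above every WT point, but C1qa and Lep are lowest in WT 1 and WT 2, while Ccl11 reads 17.4 to 20.8 TPM in all WT libraries.

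Of 18 adipokine and batokine genes, which encode factors secreted by fat, 5 were higher and 1 was lower at an unadjusted p under 0.05 (17.2% and 2.35% of all genes; median 0.10). Lep, the fat hormone that reports energy stores, read 26.5, 43.5, 109 and 85.8 TPM in WT and 197, 162, 132 and 209 TPM in Mut (log2 fold change 1.57, SE 0.38, limma adjusted p = 0.123). All Mut libraries were above all WT libraries, and the value was 0.83 without WT 1 and WT 2. Lgals3bp, the secreted galectin-3-binding protein, read 20.2, 24.2, 33.6 and 26.6 TPM in WT and 43.8, 41.6, 47.3 and 60.1 TPM in Mut (0.87), and the phospholipid transfer protein Pltp read 30.3, 39.6, 60.7 and 50.0 TPM in WT and 79.9, 70.6, 70.3 and 109 TPM in Mut (0.88). Pm20d1, which makes N-acyl amino acids that uncouple mitochondria, was lower at 2.92, 3.47, 4.06 and 3.16 TPM in Mut against 5.39, 5.64, 4.66 and 5.09 TPM in WT (-0.50). In the lipolysis list, G0s2, the inhibitor of adipose triglyceride lipase, read 393, 274, 471 and 365 TPM in WT and 543, 536, 559 and 681 TPM in Mut (0.64). In the growth factor list, Igfbp3, a carrier of insulin-like growth factors, read 3.36, 3.87, 4.12 and 3.91 TPM in WT and 5.28, 5.98, 5.87 and 5.34 TPM in Mut (0.46, limma adjusted p = 0.106), and Igf1 itself lay at 7.16 to 12.8 TPM in WT and 10.2 to 18.1 TPM in Mut (0.69). These genes, Igf1 apart, had no overlap between groups.

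Immediate early genes were higher in mean in 20 of 21 cases, 11 with an unadjusted p under 0.05 (72.7% and 17.2% of all genes; median 0.74; 0.32 without WT 1 and WT 2). Klf2, a transcription factor of endothelium, read 47.4, 26.1, 42.6 and 46.2 TPM in WT and 71.3, 54.4, 75.6 and 76.9 TPM in Mut (0.79), Jun read 43.9, 36.4, 72.9 and 61.0 TPM in WT and 91.2, 68.6, 105 and 146 TPM in Mut (0.92), and Egr2 read 1.45, 1.87, 4.63 and 3.81 TPM in WT and 5.09, 4.81, 8.27 and 14.3 TPM in Mut (1.18). Klf2 and Egr2 had no overlap, and Jun overlapped at Mut 2. Cytosolic ribosomal protein genes were all higher in mean, 57 of 57, with 30 at an unadjusted p under 0.05, but by little (same shares of all genes; median 0.21; 0.10 with median-ratio scaling, where 52 were higher). Rplp1 lay at 680.0 to 887 TPM in WT and 913 to 1201 TPM in Mut (0.42), and Rpl23 lay at 188 to 212 TPM in WT and 237 to 266 TPM in Mut (0.28). Of 18 integrated stress response genes, 16 were higher in mean and 6 with an unadjusted p under 0.05 (72.7% and 17.2% of all genes; median 0.32; 0.03 without WT 1 and WT 2). Chac1, a glutathione-degrading enzyme of that response, lay at 1.69 to 2.97 TPM in WT and 3.17 to 4.64 TPM in Mut (0.64), and Phgdh, which starts serine synthesis, lay at 19.5 to 22.2 TPM in WT and 24.4 to 36.0 TPM in Mut (0.45). Of 16 cell cycle genes all were higher in mean (72.7% of all genes; median 0.41, or 0.25 without WT 1 and WT 2), with Mcm6, a helicase of DNA replication, at 1.33, 1.52, 4.77 and 2.17 TPM in WT and 6.32, 4.32, 4.59 and 4.25 TPM in Mut, where WT 3 lay inside the Mut range.

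Some genes took separate levels in single libraries within a genotype. Of these, Tmem267 and Slc15a2 were chosen after their values were seen, and no test is drawn from the choice. Ide, the insulin-degrading enzyme, read 20.8, 22.5, 39.8 and 38.2 TPM in WT and 23.3, 42.8, 47.0 and 43.2 TPM in Mut, so that WT 1, WT 2 and Mut 1 were at the lower level and the other 5 libraries at the higher one. In the other tissues the same gene followed the labels: 39.8, 40.8, 37.8 and 39.0 TPM in WT liver against 27.9, 26.3, 26.4 and 24.9 TPM in Mut liver, with no overlap in heart or muscle either. Tmem267 read 4.40, 4.25, 19.3 and 10.7 TPM in WT and 4.52, 3.91, 4.29 and 4.00 TPM in Mut, with WT 3 and WT 4 apart from the other 6.

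Nnt, the nicotinamide nucleotide transhydrogenase that is defective in C57BL/6J mice, has 2 gene records in the annotation. The first read 3.44, 3.64, 0 and 0 TPM in WT and 2.58, 3.93, 2.20 and 2.93 TPM in Mut, with WT 3 and WT 4 listed at 0. The second read 1.16, 1.63, 6.75 and 6.09 TPM in WT and 5.73, 1.60, 3.84 and 3.12 TPM in Mut, with WT 3, WT 4 and Mut 1 highest. The first record was the 1 gene that passed without WT 1 and WT 2. The 2 records overlap on the minus strand of chromosome 13 (119335528 to 119408952 and 119335448 to 119408997). Where the first read 0, in WT 3 and WT 4, the second was highest. How Salmon shared reads between them was not examined, so the level of the first record alone is uncertain. Slc15a2, a peptide transporter, read 2.81, 2.44, 0.649 and 0.272 TPM in WT and 4.09, 9.19, 4.37 and 4.91 TPM in Mut (1.48). All its Mut libraries were above all WT libraries, and within WT it was lowest in WT 3 and WT 4. Retnla, a secreted protein of alternatively activated macrophages and fat, read 23.0, 21.6, 59.2 and 59.0 TPM in WT and 0, 0, 34.7 and 39.9 TPM in Mut, with Mut 1 and Mut 2 listed at 0. Cytosolic malate dehydrogenase, Mdh1, read 48.7, 16.1, 25.7 and 44.4 TPM in WT and 15.7, 4.35, 3.25 and 1.95 TPM in Mut (-2.46), below WT in every Mut library. Most of this value lay on a transcript of 549 bases, while the full transcript of 2122 bases averaged 0.472 TPM, so the level of Mdh1 is uncertain.

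**Figure D5:**
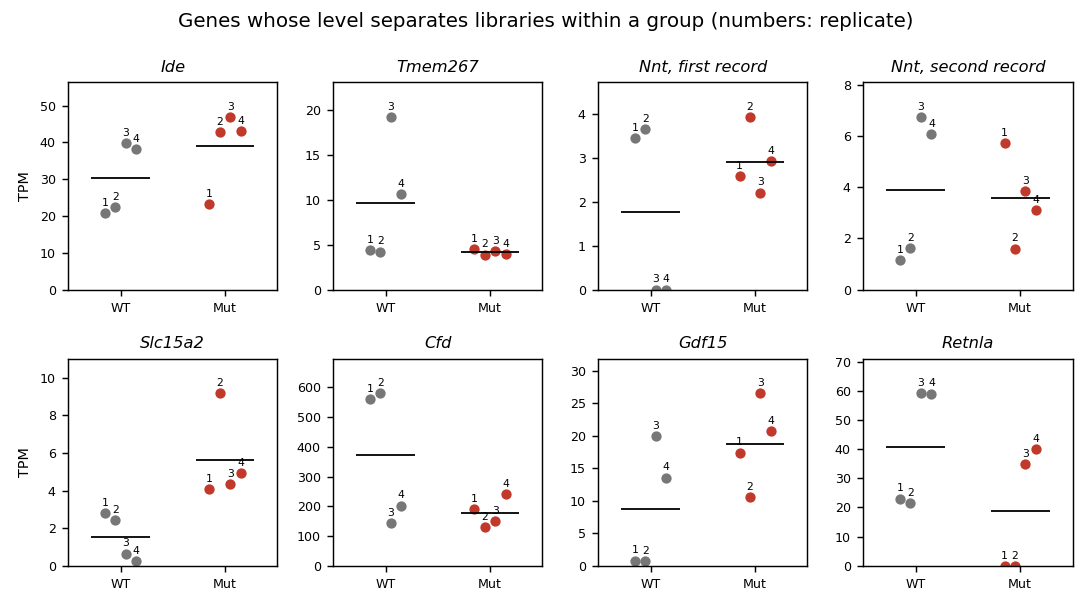
TPM of 7 genes (8 panels, with the 2 gene records of Nnt) in the 4 WT (grey) and 4 Mut (red) brown fat libraries, each point labelled with its replicate number and the bar at the group mean. Ide is at the lower level in WT 1, WT 2 and Mut 1, Cfd is high and Gdf15 low in WT 1 and WT 2 alone, and Tmem267 is high in WT 3 and WT 4 alone.

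The brown fat effect was set against the mean effect of heart, liver and muscle in 1 limma model over 32 libraries, on 10109 genes above the minimum in every tissue. It was higher in brown fat for 104 genes (1.03%) and lower for 26 (0.257%) at an adjusted p under 0.05. The brown fat values are the same as above, so these tests share them. The 8 smallest p belonged to Mdh1, Ide, Tpt1, Serpinf1, Olfm1, Ablim3, Plxnb2 and Coa5. Serpinf1, the secreted protein PEDF, read 20.0, 33.0, 37.4 and 29.7 TPM in WT and 72.2, 47.1, 42.0 and 60.3 TPM in Mut brown fat, and its log2 fold change was 0.87 there against -0.18 in heart, -0.29 in liver and 0.44 in muscle, where all Mut libraries were also above all WT libraries (difference from the mean of the other tissues 0.88, limma adjusted p = 0.0109). Coa5, an assembly factor of cytochrome oxidase, read 86.7, 93.4, 99.4 and 94.9 TPM in WT and 76.7, 71.6, 79.2 and 80.5 TPM in Mut (difference -0.40, limma adjusted p = 0.0151). Its log2 fold change was -0.28 in brown fat, 0.16 in heart, 0.17 in liver and 0.05 in muscle. Tpt1, a growth-related protein that is highly expressed in most cells, lay at 492 to 666 TPM in WT and 786 to 899 TPM in Mut (difference 0.65, limma adjusted p = 0.0109). For Tpt1 the log2 fold change was 0.45 in brown fat, -0.38 in heart, -0.29 in liver and 0.07 in muscle. Of the fuel genes described above, Gpd2 (difference -0.81, limma adjusted p = 0.0169), Acaca (-0.95, 0.0162), Aldh6a1 (-0.48, 0.0151), Gk (-0.63, 0.0374), Pygl (-0.68, 0.0303) and Opa1 (-0.46, 0.0297) also passed this test, and Pdha1 (-0.35, 0.0747), Ppara (-0.82, 0.0583) and Elovl6 (-0.91, 0.0575) did not. Liver went the other way in the genes that passed: Gpd2 0.62, Acaca 0.38, Aldh6a1 0.31, Gk 0.36, Pygl 0.31 and Opa1 0.22. Their log2 fold changes were -0.17 to 0.13 in heart and -0.11 to 0.15 in muscle. Each difference therefore holds a rise in liver as well as the lower value in brown fat. Without WT 1 and WT 2 of brown fat, Gpd2 (-0.84, limma adjusted p = 0.0493), Gk (-0.96, 0.00194), Opa1 (-0.56, 0.0246), Coa5 (-0.46, 0.0121), Ide (0.76, 0.0423), Tpt1 (0.57, 0.0246), Serpinf1 (0.70, 0.0248) and Mdh1 (-2.73, 0.0039) still passed, while Acaca (-0.83, 0.0628) and Aldh6a1 (-0.44, 0.0628) did not. A block for the replicate number paired the WT and Mut libraries of 1 number within each tissue. With it 9 genes passed, among them Ide, Mdh1 and Entpd4. Gpd2, Acaca, Aldh6a1, Gk, Pygl, Opa1, Coa5, Tpt1 and Serpinf1 lost their call there, with limma adjusted p from 0.0698 to 0.0961. The labels do not state whether a number pairs libraries or marks 1 mouse across tissues, and no model joined the tissues by number.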

How the data were processed

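RNA of brown adipose tissue from 4 WT and 4 Mut mice was sequenced as strand-specific Illumina libraries, per the labels' protocols. The authors deposited TPM for each transcript; the submitters' processing notes name Salmon. Its version and the transcriptome it used are not given in the sources read for this text. Of 147493 transcript identifiers, 136081 (92.26%) matched GENCODE M21 (GRCm38), and TPM were summed to 51510 genes; the unmatched ones held 0.451% to 0.513% of a brown fat library's TPM. TPM keep no read totals, so the depth is unknown, and errors come only from how replicates vary. Groups come from the library titles. The labels name individual mice, and whether a number marks 1 mouse across tissues is not stated.

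Mut minus WT was fitted with limma 3.58.1 in R 4.3.3, with trend on, using log2(TPM + 1) of the 8 libraries, for genes (and, separately, transcripts) with a mean of at least 1 TPM. The contrast with other tissues used 1 model over 32 libraries, taken as independent. Tests are two-sided with Benjamini-Hochberg adjustment. On simulated data with 200 altered genes among 12150, a log2 change of 1 was recovered in 88% and one of 2 in 98.5%. Genes were drawn independently there. The shift that WT 1 and WT 2 share across many genes was not simulated, so these shares do not give the power in the brown fat data. Named genes are Smim30 and its neighbours, the 20 smallest p, up to 4 genes per list by p, the ends of the first principal component and the 8 smallest p of the tissue contrast; Ucp1, Cidea, Dio2, Ppargc1a, Fasn and Gpd1 were added, as were Ryr1, Tmem267, Slc15a2, Letmd1, Cav1, Acacb and Idh3a after their values were seen. A gene that the rule names is not reported here. Members and lists were chosen with earlier results of these data known. Lists are described by counts and medians, with no list test. Alternatives were median-ratio scaling, rescaling that leaves out mitochondrial genes and the 10 most abundant others, a pseudocount of 0.1, no filter or a mean of at least 5 TPM, no trend, array weights, a block for the replicate number, a single fit to all 32 libraries, an adjusted p under 0.1, and leaving out WT 1 and WT 2 or each library.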

Additional observations from a re-analysis of the deposited data

Results flagged for a closer look

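In 254 groups of 4 libraries (127 gene records in WT and in Mut), 8 had a library set apart from the other 3 by more than Dixon's 95% critical value. For independent groups taken without regard to their values, chance gives about 1 in 20, or 12.7 groups. These groups share the same libraries, and many genes were named for a small p, so the 8 cannot be judged against that number. The measure sets 1 library against the other 3, so it does not show WT 1 and WT 2 standing apart together. Igf1 read 12.8 TPM in WT 3 against 7.16 to 7.44 TPM in the other WT libraries, and Plscr2 read 2.64 TPM in WT 3 against 1.99 to 2.08 TPM. In the Mut group, Gk read 72.6 TPM in Mut 1 against 58.5 to 60.6 TPM, and Mcm6 read 6.32 TPM in Mut 1 against 4.25 to 4.59 TPM. Slc15a2 read 9.19 TPM in Mut 2 against 4.09 to 4.91 TPM, and Ppargc1b read 10.1 TPM in Mut 2 against 12.5 to 13.0 TPM. G0s2 read 681 TPM in Mut 4 against 536 to 559 TPM, and B2m read 1094 TPM in Mut 4 against 812 to 834 TPM.

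For 21 named genes the brown fat effect differed from the mean effect of the other 3 tissues in the limma model (adjusted p under 0.05). Among all 10109 genes tested it was higher for 1.03% and lower for 0.257%. The named genes include the 8 smallest p of this contrast, and many others were named for their brown fat p. The count of 21 follows in part from that choice. Those with the lower effect in brown fat were Mdh1 (difference of log2 fold changes -2.60), Entpd4 (-1.11), Acaca (-0.95), Gpd2 (-0.81), Pygl (-0.68), Gk (-0.63), Aldh6a1 (-0.48), Opa1 (-0.46) and Coa5 (-0.40). Those with the higher effect were Ide (1.17), Serpinf1 (0.88), Olfm1 (0.87), Hmgn3 (0.84), Plxnb2 (0.84), Igf1 (0.77), Bex3 (0.72), Tpt1 (0.65), Mmp2 (0.65), Ablim3 (0.62), Hspg2 (0.58) and Plscr2 (0.55). Ide and Mdh1 passed in all 5 alternative settings of this model, Gpd2, Entpd4, Opa1, Coa5, Serpinf1 and Tpt1 in 4, and Bex3 in 1; with the replicate block, Ide, Mdh1 and Entpd4 were the 3 of the 21 that passed. Olfm1, an extracellular glycoprotein, read 2.99, 4.20, 5.99 and 5.01 TPM in WT and 8.99, 7.31, 7.59 and 9.58 TPM in Mut brown fat. Ablim3, an actin-binding protein, read 13.2, 11.8, 16.0 and 13.1 TPM in WT and 16.5, 20.5, 18.8 and 20.2 TPM in Mut. Plxnb2, a semaphorin receptor, read 3.58, 5.13, 6.10 and 4.84 TPM in WT and 10.9, 7.11, 7.80 and 9.96 TPM in Mut. In all 3 the groups did not overlap.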

How the results depend on the processing

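The count of genes at an adjusted p under 0.05 was 0, and 4 with no filter on low values (all with provisional names), 1 with a mean of at least 5 TPM (Entpd4), 1 at an adjusted p under 0.1, 648 with array weights, 848 in 1 fit over 32 libraries and 1 without WT 1 and WT 2 (an Nnt record); leaving out each library gave 0 to 827 (827 without WT 3, 1 without WT 4 and 0 without any other). Genes higher at an unadjusted p under 0.05 numbered 2084, and 1365 with median-ratio scaling, 1210 with a mean of at least 5 TPM and 1051 without WT 1 and WT 2 (1262 without WT 1 to 2982 without WT 3; 1361 without Mut 4). Genes lower numbered 285, and 1078 with median-ratio scaling, 683 with rescaling, 489 with no filter and 879 without WT 1 and WT 2 (168 without Mut 2 to 323 without WT 4). The tissue contrast gave 130 genes, 588 with median-ratio scaling, 85 without WT 1 and WT 2 and 9 with the replicate block. With the replicate number as a block 0 genes passed in brown fat. Same-numbered WT and Mut libraries deviated from their group means with correlations of -0.219, 0.058, -0.248 and -0.018. No library correlated best with the library of its own number. Whether the numbers pair the mice was not tested.

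The Smim30 log2 fold change of 0.05 was -0.06 with median-ratio scaling, -0.01 with rescaling and -0.12 without WT 1 and WT 2 (-0.04 to 0.11 leaving out each library). Many genes were named for a small p in these same libraries, so a kept sign follows in part from that choice. The share over all genes is not given. Of 127 named gene records, 116 kept their sign in every alternative. The others were Smim30, Dio2 (0.02 with a pseudocount of 0.1, 0.45 with array weights, -0.59 to 0.46 leaving out each library), Ucp1 (0.06 with array weights; -0.13 to 0.05), Tmem168 (-0.05 with median-ratio scaling, -0.005 with rescaling, -0.22 without WT 1 and WT 2; -0.05 to 0.17), Bmt2 (-0.03, -6e-04 and -0.06; -0.005 to 0.11), the second Nnt record (-0.03 with median-ratio scaling, -0.78 without WT 1 and WT 2; -0.28 to 0.34), and, without WT 1 and WT 2, Ide (-0.04), Cfd (0.03), Pim1 (0.17), Cav1 (-0.01) and Acacb (0.05). The cause was not tested. Of 810 list medians in the alternatives, 31 moved by more than the spread between libraries. Depth is unknown, so a limit of detection cannot be given.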

Other observations

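Of 23045 transcripts with a mean of at least 1 TPM, 0 passed at an adjusted p under 0.05 in limma (smallest adjusted p 0.205), and 2469 were higher and 671 lower in Mut at an unadjusted p under 0.05. The smallest p belonged to a retained-intron transcript of Letmd1, an inner membrane protein of brown fat mitochondria. It read 8.54, 6.58, 12.8 and 8.57 TPM in WT and 24.9, 37.9, 37.0 and 40.9 TPM in Mut (log2 fold change 1.85, SE 0.21, limma adjusted p = 0.205), so that the lowest Mut library was well above the highest WT library. The gene total was 284, 316, 335 and 311 TPM for WT and 266, 272, 287 and 271 TPM for Mut (-0.18), and the groups overlapped. A protein-coding transcript of Cav1, the coat protein of caveolae, read 226, 219, 249.6 and 223 TPM in WT and 313, 329, 307 and 356 TPM in Mut (0.50), while the Cav1 total overlapped between groups (0.17). For Acacb, acetyl-CoA carboxylase 2, a transcript at 24.1, 22.4, 19.0 and 22.3 TPM in WT read 15.2, 12.0, 11.2 and 12.7 TPM in Mut (-0.74), and the gene total was highest in WT 1 and WT 2 (WT 132, 138, 95.5 and 91.6 TPM, Mut 90.4, 95.3, 98.1 and 105 TPM). Another transcript, of Idh3a (a subunit of isocitrate dehydrogenase) and annotated for decay, read 8.69, 7.66, 9.93 and 9.11 TPM in WT and 4.09, 5.04, 5.18 and 5.27 TPM in Mut (-0.74). These transcripts were taken as those with the smallest p, and how Salmon shares reads among transcripts of 1 gene was not examined.

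Slow-fibre muscle genes stood out in 1 library: Tnnt1 read 28.8 TPM, Tnni1 16.4 TPM and Myh7 22.3 TPM in Mut 1, against at most 3.31, 1.57 and 2.81 TPM in the other 7 libraries. Several gene groups had a median near that of all genes tested (0.09). Among all genes, 17.2% were higher and 2.35% lower at an unadjusted p under 0.05. Of 21 cholesterol synthesis genes, 1 had an unadjusted p under 0.05 (median log2 fold change 0.05). Of 17 circadian clock genes, 1 was lower at that p (median -0.02), and of 21 antioxidant genes 1 was higher and 2 were lower (median 0.01). Of 24 heat shock and proteasome genes, 2 were higher (median 0.10).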
